A study of Equus caballus with 32 samples.

Results

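Nuclear hormone receptors, 10 in number, were followed in the blood of mares whose foals had been weaned: RXRA, RXRB, RARA, VDR, THRA, PPARA, PPARD, NR1H2, NR1H3 and NR4A1. The members are all non-control probes that the array files name for one of these 10 genes, 16 probes of the 43987 on the array, and the rule goes by gene name alone. Blood of 32 Welsh Pony mares, adult female horses, was drawn 30 days after weaning, from 16 mares after a progressive weaning and from 16 after a brutal weaning. Each mare gave 1 array, so the replicates are separate animals, and the labels neither describe the weaning procedures further nor give the mares' ages. The material was whole blood in tubes that stabilise RNA, with 200 ng of total RNA labelled with Cy3 per array.

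Nuclear hormone receptors are transcription factors whose activity is set by small lipid-soluble ligands such as retinoids, thyroid hormone, vitamin D, fatty acids and oxysterols. RXRA and RXRB, the receptors of 9-cis retinoic acid, form dimers with most of the others: RARA (the all-trans retinoic acid receptor), VDR (the vitamin D receptor), THRA (a thyroid hormone receptor), PPARA and PPARD (fatty acid sensors) and NR1H2 and NR1H3 (the oxysterol sensors LXR beta and LXR alpha). NR4A1 is an orphan receptor known as an immediate early gene, which T cells switch on rapidly after stimulation of their antigen receptor. In blood, retinoid and vitamin D signalling is best known from myeloid cells, and the LXRs from cholesterol export in macrophages.

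RXRA had 5 probes, VDR and PPARD 2 each and the other 7 genes 1 each. Since what an array reads depends on the stretch of transcript its probe matches, the probes are shown, each 5′ to 3′ as the array files give it, apart from those of RXRA and RARA and the first, brighter PPARD probe, on which the PPARD results rest. The 2 VDR probes are shown because neither gave a usable signal, and the capitals mark the 8 bases they share end to end. In the NR4A1 probe, capitals mark an 8-base run that returns below.

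RXRB: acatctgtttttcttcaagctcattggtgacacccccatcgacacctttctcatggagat
VDR, first probe: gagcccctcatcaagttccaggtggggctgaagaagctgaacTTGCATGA
VDR, second probe: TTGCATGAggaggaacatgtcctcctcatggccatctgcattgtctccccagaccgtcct
THRA: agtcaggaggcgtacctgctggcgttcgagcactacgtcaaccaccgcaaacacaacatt
PPARA: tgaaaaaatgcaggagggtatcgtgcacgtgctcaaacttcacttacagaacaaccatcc
PPARD, second probe: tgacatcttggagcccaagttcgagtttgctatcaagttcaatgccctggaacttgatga
NR1H2: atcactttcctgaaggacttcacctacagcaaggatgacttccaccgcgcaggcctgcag
NR1H3: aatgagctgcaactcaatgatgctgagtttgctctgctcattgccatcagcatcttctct
NR4A1: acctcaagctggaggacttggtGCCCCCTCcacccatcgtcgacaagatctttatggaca

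No probe sequence of a member occurred under a second probe name, and the longest run shared by probes of different receptors was 9 bases, between VDR and PPARD. The 5 RXRA probes overlap by 55 to 59 bases and are therefore 1 measured site read 5 times. The first PPARD probe and the first VDR probe are 50-base custom oligos that the files list without an accession; the other member probes are 60 bases long. The files' coordinates for the NR1H2 probe span 1922 bases and those for the second VDR probe 1378 bases, so both cross at least 1 intron. By the RefSeq table of the TB-T2T assembly, RXRA lies on chromosome 25, RXRB and PPARD on chromosome 20, RARA and THRA on 11, VDR and NR4A1 on 6, PPARA on 28, NR1H2 on 10 and NR1H3 on 12. No positions are given, because the build of the files' coordinates could not be settled.

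Values are log2 of a probe's processed signal over the 75th percentile signal of its array, so 0 is the brightness that 3 in 4 probes of the array stay under or reach. This percentile ran from 339.5 to 646.0 intensity units over the arrays, and the software that read the scans called 53.0 to 66.0% of an array's spots well above background. The 32 arrays lie on 4 slides of 8, both groups having 4 arrays per slide and, in total, 8 in each of a slide's 2 array rows. The share of spots well above background was 59.8 to 66.0% in the first row and 53.0 to 59.6% in the second. Testing was limited to probes called well above background in 8 or more mares of a group. This held for 26368 probes of 9392 genes, among them 14 member probes of 9 receptors, all but VDR. A gene is represented by its brightest tested probe. The level of one probe is not set against that of another, since probes differ in how strongly they bind.

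VDR was at background. The first VDR probe stood well above background on 1 progressive and 1 brutal array, and the second on 0 arrays of either group. No fold is given for it, and the arrays bound its transcript only from above.

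RXRA, the common dimer partner, stood well above background on 16 of 16 progressive and 16 of 16 brutal arrays with its brightest probe, and on at least 15 of 16 in each group with the other 4. Its log2 values ran from -3.48 (median -2.65) to -1.83 on the progressive arrays and from -3.28 (median -2.37) to -1.47 on the brutal arrays. The groups overlapped over most of this range, and progressive 1 was the lowest array of all. RXRA averaged -2.64 ± 0.44 in progressive mares and -2.36 ± 0.56 in brutal mares (SD, n = 16 each). The difference of -0.28 (SE 0.17) was not past the threshold in the limma fit (p = 0.119, adjusted p = 0.996). All 5 probes had a lower mean in progressive mares, by -0.29 to -0.079, and correlated with each other at r = 0.79 to 0.93. The probe with the difference of -0.079 starts 1 base before the one with -0.28, so that the spread between near-identical probes was of the order of the difference itself.

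RXRB was well above background on all 32 arrays. Its values ran from -1.73 (median -1.30) to -0.85 on the progressive arrays and from -1.80 (median -1.12) to -0.63 on the brutal arrays. The lowest array of all was brutal 4, although the brutal median was the higher one. RXRB averaged -1.29 ± 0.24 in progressive mares and -1.12 ± 0.30 in brutal mares (SD, n = 16 each), a difference of -0.17 (SE 0.097, limma p = 0.0860, adjusted p = 0.996).

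RARA, the retinoic acid receptor of myeloid differentiation, was dim: it stood well above background on 6 of 16 progressive and 10 of 16 brutal arrays. It thus entered the test through the brutal group alone, in which it was higher, and most of its progressive values are not above background. Its values ran from -5.61 (median -4.70) to -3.48 on the progressive arrays and from -4.89 (median -4.17) to -3.55 on the brutal arrays. Both groups reached the same upper end, while the lower end was held by progressive arrays that did not clear background. The means were -4.62 ± 0.56 in progressive mares and -4.21 ± 0.39 in brutal mares (SD, n = 16 each). With a difference of -0.41 (SE 0.17, 95% interval -0.74 to -0.069), RARA had an unadjusted limma p of 0.0196 and an adjusted p of 0.996. Over all probes tested, 2.75% had an unadjusted p below 0.05, 1.88% with the lower mean in progressive mares. Given how RARA entered the test, its p is a description only. RARA's difference was -0.15 with another background correction (normexp, p = 0.058) and -0.18 in the authors' own series table (p = 0.030). On slide 2 alone its sign turned, at 0.012, against -0.49 to -0.64 on the other slides.

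THRA, the thyroid hormone receptor, was well above background on all 32 arrays, with values from -1.99 (median -1.34) to -0.93 on the progressive arrays and from -1.82 (median -1.29) to -0.80 on the brutal arrays. The low end of the progressive group was progressive 16, the array with the most spots marked as outliers (851 spots). Its difference was -0.069 (SE 0.092, limma p = 0.456), and -0.026 without that array.

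PPARA, which drives fatty acid oxidation, was well above background on all 32 arrays, at -4.01 (median -3.54) to -2.85 on the progressive arrays and -4.54 (median -3.45) to -2.88 on the brutal arrays. It was the only tested receptor with a higher mean in progressive mares, by 0.084 (SE 0.14, limma p = 0.541), and the sign turned with normexp (-0.013). The first PPARD probe cleared background on all 32 arrays and ran from -2.71 (median -1.99) to -1.35 on the progressive arrays, against -2.58 (median -2.02) to -1.27 on the brutal arrays. Its difference was -0.022 (SE 0.15, limma p = 0.887). The second PPARD probe cleared background on 13 of 16 progressive and 13 of 16 brutal arrays, with a difference of 0.0099 and r = 0.58 with the first. PPARD was the receptor whose slides disagreed most: 0.31 and 0.57 on slides 1 and 2, and -0.36 and -0.61 on slides 3 and 4.

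NR1H2, the LXR found in most cell types, was well above background on all 32 arrays. It ran from -0.88 (median -0.26) to 0.08 on the progressive arrays and from -0.62 (median -0.15) to 0.25 on the brutal arrays, which overlapped except at both ends. Its means were -0.31 ± 0.26 in progressive mares and -0.16 ± 0.21 in brutal mares (SD, n = 16 each), a difference of -0.15 (SE 0.085, limma p = 0.0804, adjusted p = 0.996). NR1H3, the LXR of macrophages and liver, cleared background on 11 of 16 progressive and 9 of 16 brutal arrays, at -5.75 (median -4.50) to -3.66 in progressive mares and -6.51 (median -4.65) to -2.84 in brutal mares. The brutal arrays held both extremes of NR1H3, brutal 4 at the bottom and brutal 11 at the top. Its difference was -0.050 (SE 0.24, limma p = 0.834).

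NR4A1 was well above background on all 32 arrays and ran from 1.76 (median 2.43) to 3.42 on the progressive arrays, against 1.94 (median 2.45) to 3.22 on the brutal arrays. The difference was -0.056 (SE 0.14, limma p = 0.694), and the groups lay on top of each other.

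**Figure D1:**
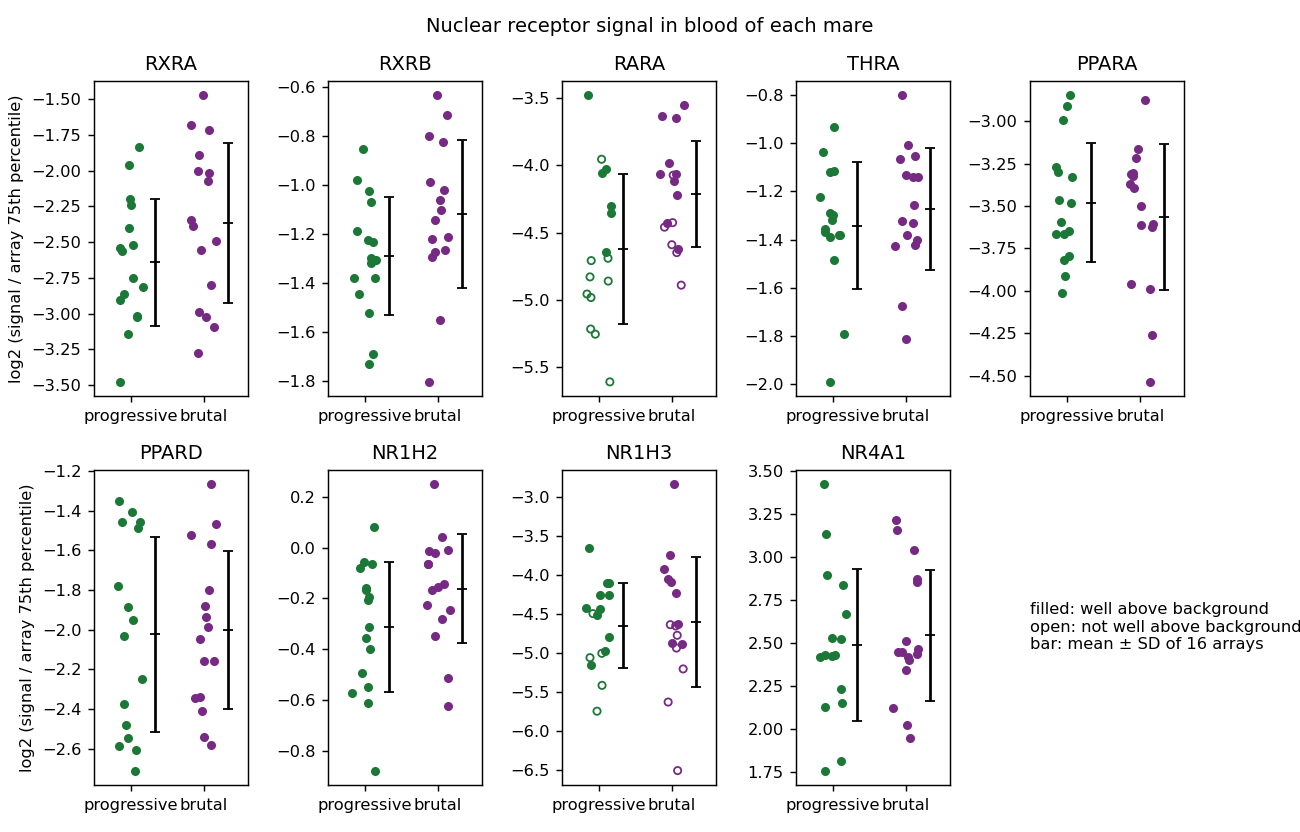
Log2 signal relative to the array's 75th percentile (vertical axes, a scale per gene) of the brightest tested probe of 9 receptors in 16 progressive (left) and 16 brutal (right) mares. Filled points stood well above background, open points did not, and bars are the mean ± SD. The groups overlap for every receptor, and open points are frequent only for RARA and NR1H3.

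Taken over the receptors, 0 of the 9 were past the adjusted threshold of 0.05, as were 0.0% of the 26368 probes tested; 726 probes had an unadjusted p below 0.05, 230 of them higher in progressive mares and 496 lower. The mean was lower in progressive mares for 8 of the 9 receptors, with a median difference of -0.069, beside 58.3% of all tested genes and a median of -0.020. Leaving out RARA, which was tested through 1 group alone, 7 of 8 were lower with a median of -0.063. On slide 2 alone 4 of 9 were lower, with a median of 0.012. Scaling moved the share over all genes: with the percentile taken over probes detected on all arrays 4632 of 9392 genes were lower, and with normexp 6371. The split of probes with an unadjusted p below 0.05 was 307 higher and 394 lower with that percentile and 96 higher and 540 lower with normexp. The receptors were lower in 8 of 9 with the same percentile, 9 of 9 with normexp, 8 of 9 after quantile normalisation and 7 of 8 in the authors' series table. By their brightest probes, RXRA, RXRB and NR1H2 were lower in progressive mares on each of the 4 slides, RARA on 3 of them, and the others on 1 or 2. On slide 3, however, the NR1H2 difference was only -0.0017, and a near-identical RXRA probe was higher in progressive mares (0.11). The share of all genes that were lower on each of the 4 slides was not computed.

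**Figure D2:**
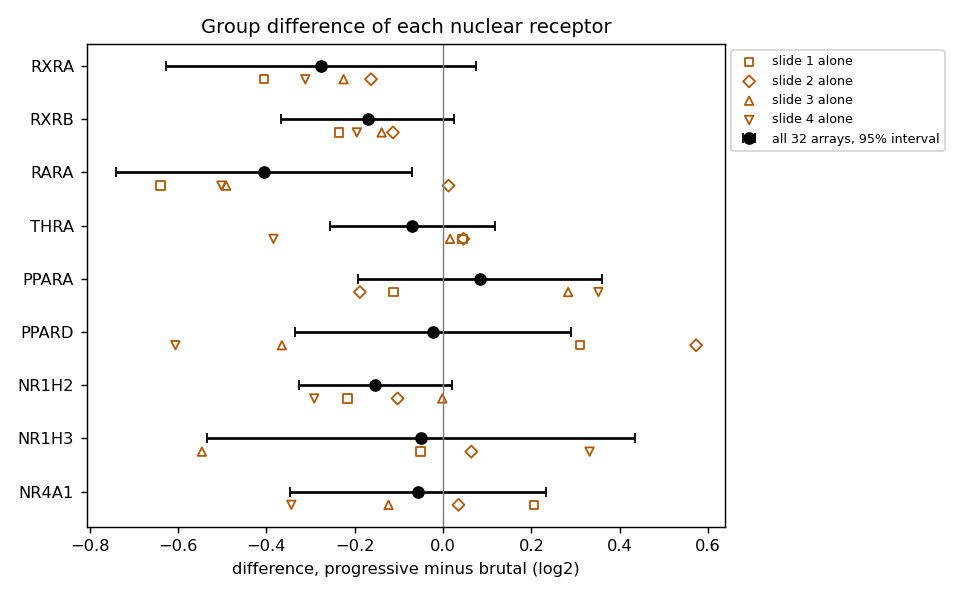
Difference of the group means, progressive minus brutal, on the log2 scale (horizontal axis) for 9 receptors. Black points with bars are limma estimates with 95% intervals over all 32 arrays, and open orange symbols are the differences within each slide. Only the interval of RARA leaves out 0, and RARA entered the test through the brutal group alone, so its interval is a description only. The slides fall on one side of 0 for the brightest probes of RXRA, RXRB and NR1H2, with NR1H2 on slide 3 at -0.0017.

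A pair of arrays stood at the lower end for several receptors. Of the 9 receptors, brutal 4 was the lowest brutal array for 6 and progressive 1 the lowest progressive array for 4 (RXRA, RXRB, RARA and NR1H2). Both had low scores for some blood cell types and not for others, where a score is the mean z value of a cell type's marker genes on an array. The neutrophil score was -1.65 on progressive 1 and -1.18 on brutal 4, and the monocyte score -1.02 on progressive 1 and -1.84 on brutal 4. The T cell score was -0.68 on progressive 1 and 0.51 on brutal 4, and the B cell score 0.87 on progressive 1 and 0.91 on brutal 4. Without brutal 4 the difference of RXRB was -0.22 (unadjusted limma p = 0.021) and that of NR1H2 -0.18 (unadjusted limma p = 0.032). Their adjusted p was then still at least 0.845. Brutal 4 was picked because it was low, so leaving it out had to widen these differences. Without progressive 1, picked in the same way, the NR1H2 difference narrowed to -0.12.

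The spread among mares of a group was compared as well. In a limma fit on each array's absolute distance from its group's median, 0 of 9 receptors and 0.0% of all probes passed the threshold, and the smallest unadjusted p of a receptor was 0.190 (PPARD). Between slides, 0.0379% of probes differed past the threshold (F test) and 0 of 9 receptors did. Between the array rows, 0.0% of probes did, although 5.95% had an unadjusted p below 0.05, and 0 of 9 receptors were among those.

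Blood is a mixture of cells, and RXRA, RXRB and THRA varied between mares along with markers of particular leukocytes. In whole blood fewer cells of a type and less RNA per cell cannot be told apart. RXRA and RXRB were higher on arrays with high neutrophil and monocyte scores, and THRA on arrays with a high T cell score. Pearson's r over the 32 arrays was 0.65 for RXRA with the neutrophil score (Spearman's rho 0.63, adjusted permutation p = 0.00168) and 0.62 with the monocyte score (rho 0.60, adjusted permutation p = 0.00259). RXRB had r = 0.63 with the neutrophil score (rho 0.54, adjusted permutation p = 0.00259) and 0.68 with the monocyte score (rho 0.58, adjusted permutation p = 7.2e-04). These 2 scores themselves correlated at r = 0.83, so they do not separate the 2 cell types. THRA had r = 0.71 with the T cell score (rho 0.68, adjusted permutation p = 7.2e-04) and, in contrast, r = -0.0038 with the neutrophil score.

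These 5 relations passed the threshold under each of the 4 other scalings and with the means of group and slide removed. Without the 2 arrays farthest from the median score, r was 0.56 and 0.55 for RXRA with the neutrophil and monocyte scores, 0.54 and 0.59 for RXRB with the same scores, and 0.67 for THRA with the T cell score. Within single slides of 8 arrays r had the same sign throughout. It ran from 0.20 to 0.94 for RXRA and from 0.28 to 0.81 for RXRB with the neutrophil score, from 0.14 to 0.93 for RXRA and from 0.26 to 0.94 for RXRB with the monocyte score, and from 0.55 to 0.82 for THRA. Within the groups, RXRA with the neutrophil score had r = 0.80 in progressive mares and 0.48 in brutal mares, and THRA with the T cell score 0.71 in progressive mares and 0.73 in brutal mares.

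Of 72 pairs of a receptor and a score, 15 passed the adjusted threshold. The share of all tested genes that follow these scores was not computed. Whether the receptors follow them more often than other genes is therefore not known. The other 10 were less stable, since each lost its call without the 2 farthest arrays and under at least 1 other scaling. They were NR1H2 with the neutrophil (r = 0.55), monocyte (0.58) and platelet (0.50) scores, NR1H3 with the monocyte score (0.52), RARA with the neutrophil (0.46), monocyte (0.47) and platelet (0.45) scores, THRA (0.50) and NR4A1 (0.45) with the platelet score, and PPARA with the erythroid score (-0.45). No score correlated with PPARD past the threshold, the highest r being 0.34 with the T cell score (adjusted permutation p = 0.200).

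**Figure D3:**
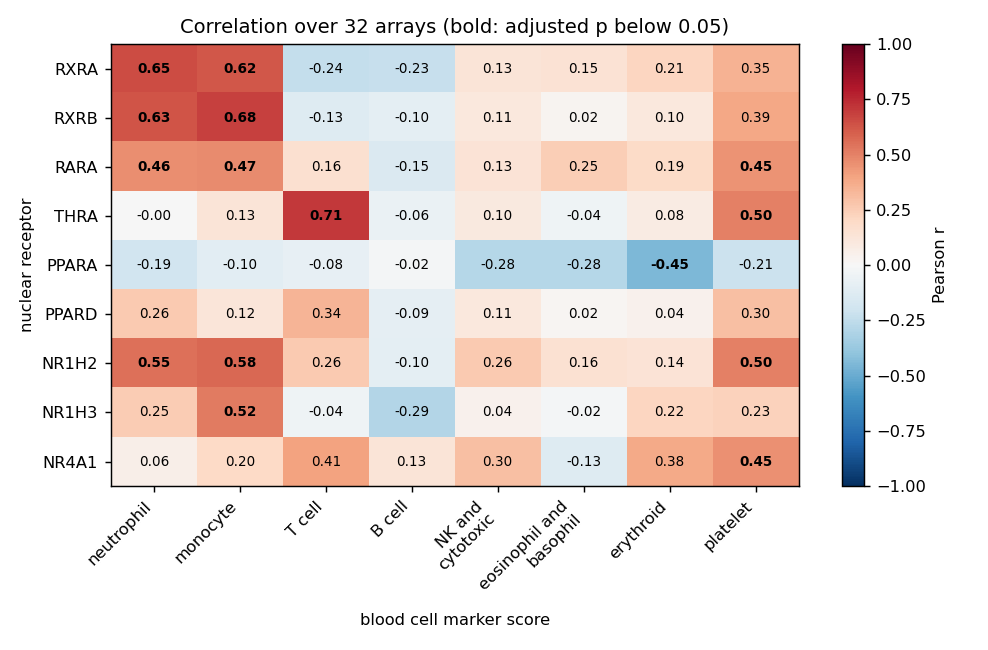
Pearson r over 32 arrays between 9 receptors (rows) and 8 blood cell marker scores (columns); bold values have an adjusted permutation p below 0.05. The neutrophil and monocyte columns are highest for RXRA and RXRB, and the T cell column for THRA.

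**Figure D4:**
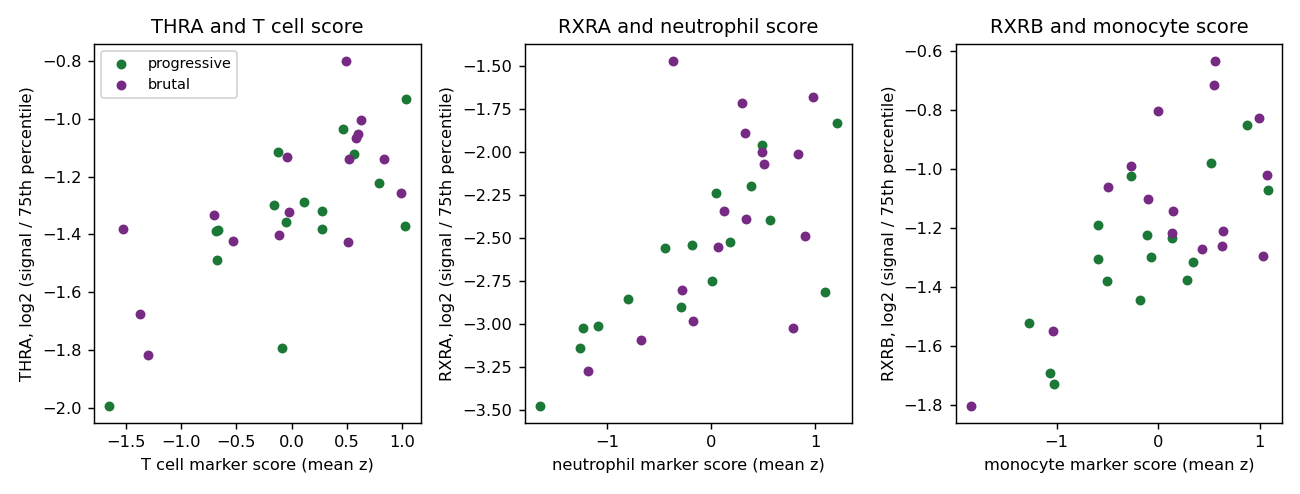
THRA against the T cell score, RXRA against the neutrophil score and RXRB against the monocyte score; each point is a mare, green for progressive and purple for brutal. Horizontal axes are mean z values and vertical axes log2 signal relative to the 75th percentile. Over all 32 arrays the signal runs up with the score, with r = 0.71, 0.65 and 0.68.

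Several marker lists also had lower means in progressive mares and others did not, with no marker past the adjusted threshold. Beside the counts that follow, 58.3% of all tested genes were lower. T cell markers were lower in 5 of 12 (median 0.0058) and B cell markers in 3 of 8 (median 0.017). NK and cytotoxic markers were lower in 4 of 7, and eosinophil and basophil markers in 4 of 5. Of 15 measured neutrophil markers of 17 listed, 14 had the lower mean in progressive mares (median -0.18) and 0 passed the adjusted threshold. The neutrophil score averaged -0.19 ± 0.85 in progressive mares (-1.65 to 1.21) and 0.19 ± 0.60 in brutal mares (-1.18 to 0.98; SD, n = 16 each). Monocyte markers were lower in 5 of 8, near the share of all genes, with scores of -1.27 to 1.08 in progressive and -1.84 to 1.07 in brutal mares. Erythroid markers were lower in 4 of 5 (median -0.47; SELENBP1 unadjusted limma p = 0.0059), with scores of -1.09 to 1.08 in progressive and -0.84 to 1.81 in brutal mares. The 7 platelet markers were lower in 7 of 7 (median -0.40), with scores of -1.61 to 1.09 in progressive and -0.77 to 1.61 in brutal mares. With neutrophil, lymphocyte, erythroid and platelet scores as covariates, the limma differences were -0.052 for RXRA, -0.063 for RXRB, -0.044 for NR1H2 and -0.22 for RARA, against -0.28, -0.17, -0.15 and -0.41 without them. In that fit 5 of 9 receptors were lower in progressive mares, as were 4394 of 9392 genes. This fit only describes the values beside scores made from the same arrays. The part of cell composition in the group difference was not tested.

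The receptors also varied with each other. Over the 36 pairs of tested receptors, 7 correlations passed the threshold, with p-values adjusted over all 9237 genes set against the same receptor and the larger of both receptors' adjusted p taken. RXRB and NR1H2 had r = 0.74 (rho 0.76, adjusted permutation p = 3.8e-04), RXRA and RXRB 0.75 (rho 0.75, adjusted permutation p = 6.0e-04), RARA and NR1H2 0.76 (rho 0.75, adjusted permutation p = 0.00205) and RXRA and NR1H2 0.63 (rho 0.58, adjusted permutation p = 0.00215). RXRA, RXRB and NR1H2 thus tended to be high in the same mares, and RARA in those with high NR1H2. RARA stood well above background on only 16 of 32 arrays and was tested through the brutal group alone, so its correlations are a description only. RXRA with RARA did not pass (r = 0.42, adjusted permutation p = 0.078) and had r = -0.36 on slide 3. Each pair was also tested without the 2 arrays farthest from the median of the receptor named first, and without those of the other receptor. The larger adjusted p of these 2 tests was taken. The first 4 pairs kept their call. Their r was 0.77, 0.75, 0.67 and 0.60 in the first test and 0.65, 0.69, 0.68 and 0.52 in the second. RXRB with RARA (r = 0.57, then 0.63 and 0.46), THRA with NR1H2 (0.58, then 0.50 and 0.61) and PPARA with NR4A1 (-0.59, then -0.51 and -0.55) did not keep it.

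All 7 pairs had the same sign in each of the 4 slides, as low as 0.24 for RXRA with NR1H2 on one slide and as high as 0.94 for RXRA with RXRB on another. For each receptor the share of all genes correlated with it past the threshold is the background: 19.2% for RXRA, 23.5% for RXRB, 15.5% for RARA, 7.95% for THRA, 21.9% for PPARA, 0.0% for PPARD, 32.1% for NR1H2, 0.0% for NR1H3 and 37.3% for NR4A1. A pair passed only if the adjusted p of both receptors did, while each share rests on 1 receptor. With PPARD and NR1H3 no gene passed, so none of their pairs did. The 7 of 36 pairs are therefore not comparable with these shares. Whether receptors go together more often than other genes was not tested. With the 4 composition scores removed from every gene, r was 0.58 for RXRA with RXRB (adjusted permutation p = 0.083), 0.52 for RXRB with NR1H2 and 0.56 for RARA with NR1H2, and only PPARA with NR4A1 passed.

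PPARA and NR4A1, which were high in opposite mares, both followed the brightness of the array. NR4A1 had r = -0.84 with the log2 of the array's 75th percentile signal (rho -0.75, adjusted permutation p = 1.8e-04), from -0.76 to -0.90 within slides, and PPARA had r = 0.67 (rho 0.61, adjusted permutation p = 3.6e-04), from 0.10 to 0.91 within slides. Without the 2 arrays farthest from the median percentile, r was -0.84 for NR4A1 and 0.52 for PPARA. Of 18 relations of a receptor with an array measure, these were the 2 past the threshold, and they were chosen for a look after the data were seen. All values are relative to that same percentile, so the measures are not independent. With normexp the correlation of PPARA with NR4A1 was -0.023, against -0.59 in the values used here.

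**Figure D5:**
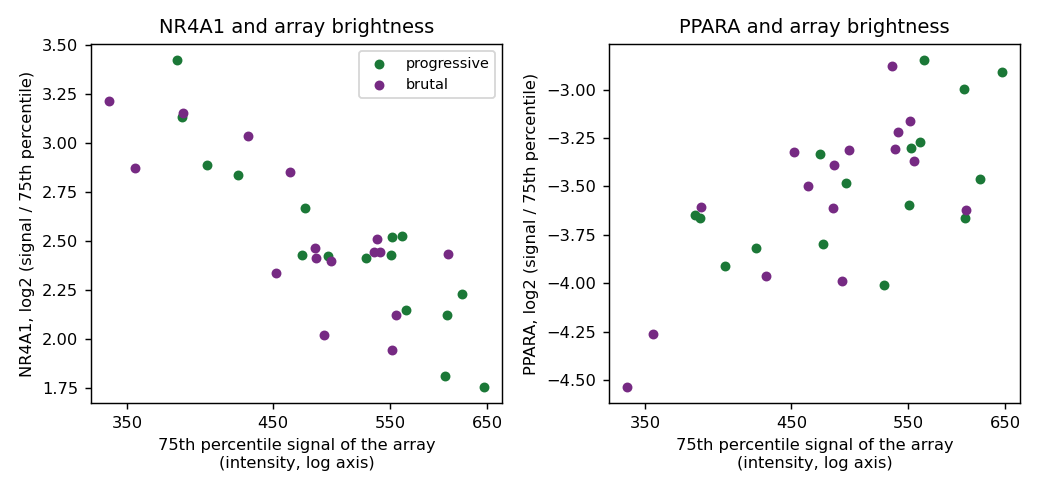
NR4A1 (left) and PPARA (right) as log2 signal relative to the 75th percentile against that percentile in intensity units on a log axis, with 1 point per mare, green for progressive and purple for brutal. NR4A1 runs down with array brightness (r = -0.84) and PPARA up (r = 0.67), in both groups.

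NR4A1 differed from the other receptors in the genes most like it. The 3 genes with the highest r over the 32 arrays were OR2AG1 (an olfactory receptor, r = 0.98), RANBP10 (a Ran-binding protein, r = 0.98) and OR10X1E (an olfactory receptor, r = 0.97). All 3 probes hold the same 8-base run as the NR4A1 probe, shown here in capitals with 8 bases on either side, to be read against the NR4A1 probe above.

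OR2AG1: ttcctgatGCCCCCTCttgttgct
RANBP10: ccaaagcaGCCCCCTCtgatgctt
OR10X1E: tttcctcaGCCCCCTCattttcag

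The run was noticed in these probes after their correlations were seen. GCCCCCTC occurs in 23 of the 43987 probes on the array, or 0.0523%, and all 23 were among the tested probes. Over the 22 others, the median r with NR4A1 was 0.85, and 8 of the 22 had r above 0.9. Without the 3 probes that prompted the search, the median over 19 was 0.84, and 5 of them had r above 0.9. Over the 25958 tested probes without it the median was 0.12, and 105, or 0.404%, had r above 0.9. The 7 probes with the run on the opposite strand, GAGGGGGC, had a median of 0.38, and the 747 with CCCCC, which GCCCCCTC contains, a median of 0.49. The 22 probes also followed array brightness, with a median r of -0.75 with the log2 percentile, against -0.10 over the probes without the run. Genes that are switched on together with NR4A1 in stimulated cells gave a mixed picture: FOSB had r = 0.95 with it, JUNB 0.39, IER2 0.32, DUSP2 0.31, EGR2 0.29, EGR1 -0.10, DUSP1 -0.12, CD69 -0.17 and FOS -0.19. The FOSB probe does not hold the run. Only FOSB of the 9 measured genes of this list passed the threshold, a share below the 37.3% of all genes that passed with NR4A1.

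For the other receptors the 3 most similar genes, each by Pearson's r over 32 arrays, were as follows. RXRA was closest to EHD1, CHST11 and KHNYN (r = 0.82 to 0.83), and RXRB to ATG9A (an autophagy protein), ARID5A and ELL (0.82 to 0.85). RARA was closest to TSC22D4, PPP1R18 and CFL1 (cofilin, an actin-severing protein; 0.78 to 0.80), and THRA to FAM78A, CLN6 and PTP4A3 (0.78 to 0.81). NR1H2 had the closest neighbours after NR4A1, with GNAI2 (an inhibitory G protein subunit), TGFB1 (a cytokine) and TSC22D4 (0.91 to 0.92). TSC22D4 was thus named for both RARA and NR1H2. PPARA was closest to KDM4C (a histone demethylase), BBX and TAF1 (0.74 to 0.79). For PPARD (DCAF12 0.72, SREBF1 0.65, FBXO18 0.62) and NR1H3 (DHRS3 0.74, ISG12(A) 0.62, SERPINB8 0.61) no gene passed the threshold, the smallest adjusted permutation p being 0.0924 for both.

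The genes around the receptors were described by lists of their coregulators, ligand-supplying enzymes and target genes, none of which was past the adjusted threshold between the groups. Of 26 coregulators 21 were measured, 15 higher and 6 lower in progressive mares (median 0.026). CARM1, a histone arginine methyltransferase that coactivates receptors, had the smallest p (-5.32 ± 0.60 in progressive and -4.95 ± 0.56 in brutal mares, SD, n = 16 each; limma p = 0.074), but stood well above background on 5 of 16 progressive and 9 of 16 brutal arrays and entered the test through the brutal group alone. PPARGC1B, a coactivator, followed with a difference of -0.19. Among mares, RXRB correlated negatively with SIRT1 (r = -0.69), BRD8 (-0.67) and KAT2B (-0.56), and RXRA and NR1H2 did so with the same 3 genes (-0.45 to -0.69). Those 3 genes were picked because they passed the threshold with all 3 receptors. In all, 3 of the 21 coregulators passed with RXRA, 4 with RXRB (NCOA5 positively, r = 0.53) and 6 with NR1H2 (CARM1 0.57, PRMT1 0.52 and NCOA5 0.47 positively), shares near or below the background of 19.2, 23.5 and 32.1% of all genes.

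Ligand supply covers the making, binding and breakdown of retinoids, vitamin D, thyroid hormone and oxysterols, and 10 of its 29 genes were measured, 5 lower and 5 higher. CYP26A1, which breaks down retinoic acid and is a target of RARs, stood well above background on 9 of 16 progressive and 6 of 16 brutal arrays, so it entered the test through the progressive group alone, in which it was higher. Its mean was -4.85 ± 0.62 in progressive and -5.32 ± 0.62 in brutal mares (SD, n = 16 each; difference 0.47, limma p = 0.033, adjusted p = 0.996), and many of these values are not above background. Of the 10, 2 correlated positively with RXRA past the threshold, DHRS9 (r = 0.56) and DHRS3 (r = 0.47), short-chain dehydrogenases that act on retinoids. CYP26A1 was the 1 that did so negatively (r = -0.45). Beside these counts, 19.2% of all genes passed with RXRA.

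Targets of LXR were lower in progressive mares in 6 of 8 measured (median -0.039). The smallest p belonged to MYLIP, a ubiquitin ligase for the LDL receptor (difference -0.13, limma p = 0.106), and SREBF1, the regulator of fatty acid synthesis (-0.097, p = 0.274). Of the 8, 3 correlated with NR1H2 past the threshold, among them SREBF1 (r = 0.72) and MYLIP (0.47), a share near the background of 32.1%. With NR1H3 0 did, but 0.0% of all genes passed with NR1H3, so that count says nothing about the targets. PPAR targets were lower in 10 of 12 (median -0.067), led by UCP2, a mitochondrial carrier (-0.23, p = 0.124), and CAT, catalase (0.075, p = 0.295). Of the 12, 0 correlated with PPARA past the threshold, beside 21.9% of all genes. With PPARD 0 of 12 did, but 0.0% of all genes passed with PPARD, so that count too says nothing about the targets. VDR targets were lower in 5 of 7 (median -0.076), with NINJ1 at -0.34 (p = 0.121) and SLC37A2 at -0.30 (p = 0.138; well above background on 7 of 16 progressive and 9 of 16 brutal arrays).

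RAR targets were lower in 4 of 6 (median -0.063), with CYP26A1 as above and CD38, an enzyme of NAD breakdown, at 0.21 (p = 0.294). Of the 6, 0 correlated with RARA past the threshold, beside 15.5% of all genes, and 6 genes are few for such a share. Of the TR targets only ME1, malic enzyme, was measured (-0.081, p = 0.607). In the list of immediate early genes 4 of 9 were lower (median 0.090). IER2 and JUNB, both induced within minutes of cell stimulation, had the smallest p there. IER2 averaged -1.49 ± 0.25 in progressive mares and -1.21 ± 0.39 in brutal mares (SD, n = 16 each; difference -0.28, limma p = 0.018), and JUNB 5.71 ± 0.37 in progressive and 5.99 ± 0.29 in brutal mares (difference -0.28, limma p = 0.021), both with an adjusted p of 0.996.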

How the data were processed

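Single-colour Agilent arrays of 32 mares were used, 16 progressive and 16 brutal. Per the file headers and the submitters' processing notes, the deposited intensity values were extracted with Agilent Feature Extraction 10.10.1.1, with background subtraction and spatial detrending. A deposited table of the whole series has log2 values for 25619 spots; how these were normalised is not stated in what was used here, and each column was checked against its own array (rank correlation at least 0.996). Outlier spots (2483 in all) were dropped and none was saturated. Each spot's processed signal was taken relative to the array's 75th percentile over non-control spots, put on the log2 scale and replicate spots were averaged. Group differences (progressive minus brutal) came from limma 3.58.1 under R 4.3.3 (lmFit, eBayes, two-sided, Benjamini-Hochberg over 26368 probes, threshold 0.05, no covariate). The number of arrays limits the precision. Correlations were tested, two-sided, by 100000 permutations (all 40320 orders within a slide) in Python 3.11.15 with numpy 2.4.6, adjusted over all 9237 tested genes with values on all arrays for pairs of receptors, over 72 pairs for marker scores and over 18 for array measures; the smallest p they can give is 1e-05. Plots used matplotlib 3.10.9. The limma fits of group difference and spread and the permutation test of correlations were tried on simulated data.

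Named genes are every member, the 3 genes with the highest r with each, and the 2 genes with the smallest p of each of 9 pathway lists; list genes correlated with a receptor and those of the NR4A1 list were named after their values were seen, and some genes under this rule are not reported here. Members, lists and markers were chosen with earlier results of these data known. Alternatives were 4 other scalings (normexp with an offset of 50, quantile, a percentile of probes detected in every mare, the authors' series table), 2 filters, slide and array row as blocks, slides alone or left out, single arrays left out, trend and robust eBayes, array weights, composition covariates and averaging a gene's probes; the comparison of array rows, the array measures and the search for a shared run were added after seeing the data. RXRA and RARA probes are not printed, because their place in the transcript was not settled, nor is the PPARD oligo without an accession.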

Additional observations from a re-analysis of the deposited data

How the results depend on the processing

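Under the alternatives run, no receptor's difference passed the adjusted threshold, with an adjusted p of at least 0.845. The count of probes past it was 0 in all but slide 4 alone (1), and 0 with any array left out, for the spread too. The receptors' median difference ran from -0.18 to -0.040 with single arrays left out and was -0.31 on slide 4 alone and 0.012 on slide 2 alone. Group as a covariate left 2 probes that differed between slides, against 10 without it. Of receptor pairs, 7 passed, but 11 with normexp, 4 without the 2 farthest arrays, 1 with composition scores removed and 0 on slides 1 to 4 alone. Of pairs with marker scores, 15 passed, but 8 with the percentile of probes detected on all arrays, 9 in the series table, 8 after quantile normalisation, 5 without the 2 farthest arrays, 3 on slide 1 alone and 0 on slides 2 to 4 alone. Single slides hold 8 arrays.

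RXRA, RXRB and NR1H2 kept their sign throughout by their brightest probes, although NR1H2 was at -0.0017 on slide 3 alone. Another RXRA probe turned there (0.11). Signs turned for RARA on slide 2 alone (0.012) and for THRA with composition covariates (0.011), on slides 1 (0.044), 2 (0.046) and 3 (0.016) alone and without slide 4 (0.035). PPARA turned with normexp (-0.013), composition covariates (-0.059), slides 1 (-0.11) and 2 (-0.19) alone and without slide 4 (-0.0057). PPARD turned with array weights (0.034), composition covariates (0.12), slides 1 (0.31) and 2 (0.57) alone, without slide 3 (0.092) or 4 (0.17), and with 10 single arrays left out (range -0.067 to 0.027). NR1H3 turned with composition covariates (0.18), slides 2 (0.064) and 4 (0.33) alone, without slide 3 (0.11), and with 4 single arrays left out (range -0.18 to 0.067). NR4A1 turned with composition covariates (0.14), slides 1 (0.21) and 2 (0.035) alone and without slide 4 (0.039). The spread difference turned for PPARA with normexp (0.029) and in the series table (0.0016), for NR1H3 with normexp (0.0023), and with single arrays left out for THRA (range -0.056 to 0.0013), PPARA (-0.070 to 0.016) and NR4A1 (-0.0038 to 0.074). The correlation turned for RARA with the platelet score on slide 2 alone (-0.020), for PPARA with the erythroid score with normexp (0.0099) and on slide 1 alone (0.12), and for NR1H2 with the platelet score on slide 3 alone (-0.0100). The causes were not tested.

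No paired analysis was possible because the labels tie no progressive mare to a brutal one. The series table and the stricter filter gave no value for NR1H3, nor the stricter filter for RARA. RARA and NR1H3 lay near background on many arrays, which limits their precision.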

Other observations

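Other nuclear receptors were measured beside the 10. Of 39 further genes listed as receptors or their partners, 16 had a tested probe, 11 lower and 5 higher in progressive mares (median -0.043), and 0 passed the adjusted threshold in the limma fit (1 had an unadjusted p below 0.05). That gene was RARG, a second retinoic acid receptor, which was well above background on 32 of 32 arrays and averaged 2.40 ± 0.42 in progressive mares and 2.67 ± 0.26 in brutal mares (SD, n = 16 each; difference -0.27, SE 0.12, p = 0.033, adjusted p = 0.996). NR5A1, known from steroid-producing tissue, followed with a difference of -0.22 (p = 0.120) and stood well above background on 24 arrays.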
